A study of Trichoderma guizhouense with 100 samples.

Results

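The xylan alpha-glucuronidase genes of the filamentous fungus Trichoderma guizhouense NJAU4742 are 3 of the 11244 genes in the expression table. OPB39965 and OPB40700 belong to glycoside hydrolase family GH67, and OPB36320 belongs to family GH115. They were taken by their gene identifiers and annotation, without use of their values. OPB39965 is annotated by its likeness to an alpha-glucuronidase of Hypocrea jecorina (Trichoderma reesei), OPB40700 as a GH67 protein only, and OPB36320 as a xylan glucuronidase. All 3 passed the filter on low values.

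Xylan is the main hemicellulose of grasses and hardwoods, a chain of xylose units that carries acetyl, arabinose and (methyl)glucuronic acid side groups. Endoxylanases cut the chain, beta-xylosidases release xylose from the pieces, and esterases and arabinofuranosidases take off the other side groups. Alpha-glucuronidases release the glucuronic acid: GH67 enzymes act on it at the end of short oligosaccharides, whereas GH115 enzymes can also act on it within longer chains. In Trichoderma reesei the regulator Xyr1 activates xylanase and cellulase genes, and ACE1 is described as a repressor.

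Mycelium was grown on glucose, sampled at 0 h and sampled again at 4, 24 and 72 h after transfer to Avicel (microcrystalline cellulose), to xylan or to carbon starvation (CS), a medium that held no carbon source. The libraries came from the mutants ∆Tgxyr1 (30 libraries), ∆Tgace1 (21) and ∆Tgace2 (21), each lacking the regulator in its name, and from the parent strain, WT NJAU4742 (28), which was set against them. ∆Tgace1 and ∆Tgace2 have no CS libraries. Of the 34 groups, 32 hold 3 libraries, while WT on CS at 4 h and at 72 h hold 2. In each mutant the gene was replaced by a hygromycin resistance cassette that WT does not carry, so an effect of the cassette and one of the lost regulator cannot be told apart. The number of transformants behind each mutant is not given in the sources used here. Groups were compared over libraries, described in the study as biological replicates.

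Values are RPKM, by name scaled by gene length and mapped reads, and the study normalised them with Cuffnorm. How that scaled the libraries was not checked. Because of the scaling by length, levels of different genes can be set side by side. TgXyr1 (OPB38038) was listed at 0 in 23 of 30 ∆Tgxyr1 libraries and reached at most 0.168 RPKM in the others, against 1.29 to 143 RPKM in WT. For the other mutants no such check is reported here. Read totals are unknown, and the RPKM of a library summed to between 553844 and 3295522. In 6 libraries the mean correlation with their own group was under 0.95 and the lowest of the group. In 5 of them, all of ∆Tgace1, it was 0.89 to 0.94. In replicate 2 of WT on Avicel at 72 h it was 0.78, and that library correlated at 0.97 with a WT library on CS at 72 h. Every call given below for the 3 genes was also made without these 6 libraries.

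The GH67 genes were near the floor of the assay on glucose. OPB39965 was listed at 0 in all 3 libraries at 0 h of ∆Tgxyr1, of ∆Tgace1 and of WT, and at 0, 0.0377 and 0 RPKM in those of ∆Tgace2. OPB40700 was listed at 0 in all 3 libraries of ∆Tgxyr1 and of ∆Tgace1, had 0, 0 and 0.0491 RPKM in ∆Tgace2, and had 0.0448, 0.0460 and 0 RPKM in WT. Low values of both genes were whole multiples of a smallest step, within 0.15 of a whole number for all 20 such values of OPB39965 and all 25 of OPB40700. The step, read as 1 fragment, was 0.0181 to 0.133 RPKM for OPB39965 and 0.0184 to 0.135 RPKM for OPB40700, depending on the library. The value of 0.0448 RPKM of OPB40700 in WT is 1 such fragment. The GH115 gene OPB36320 was above 2 RPKM in each of the 100 libraries.

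**Figure D1:**
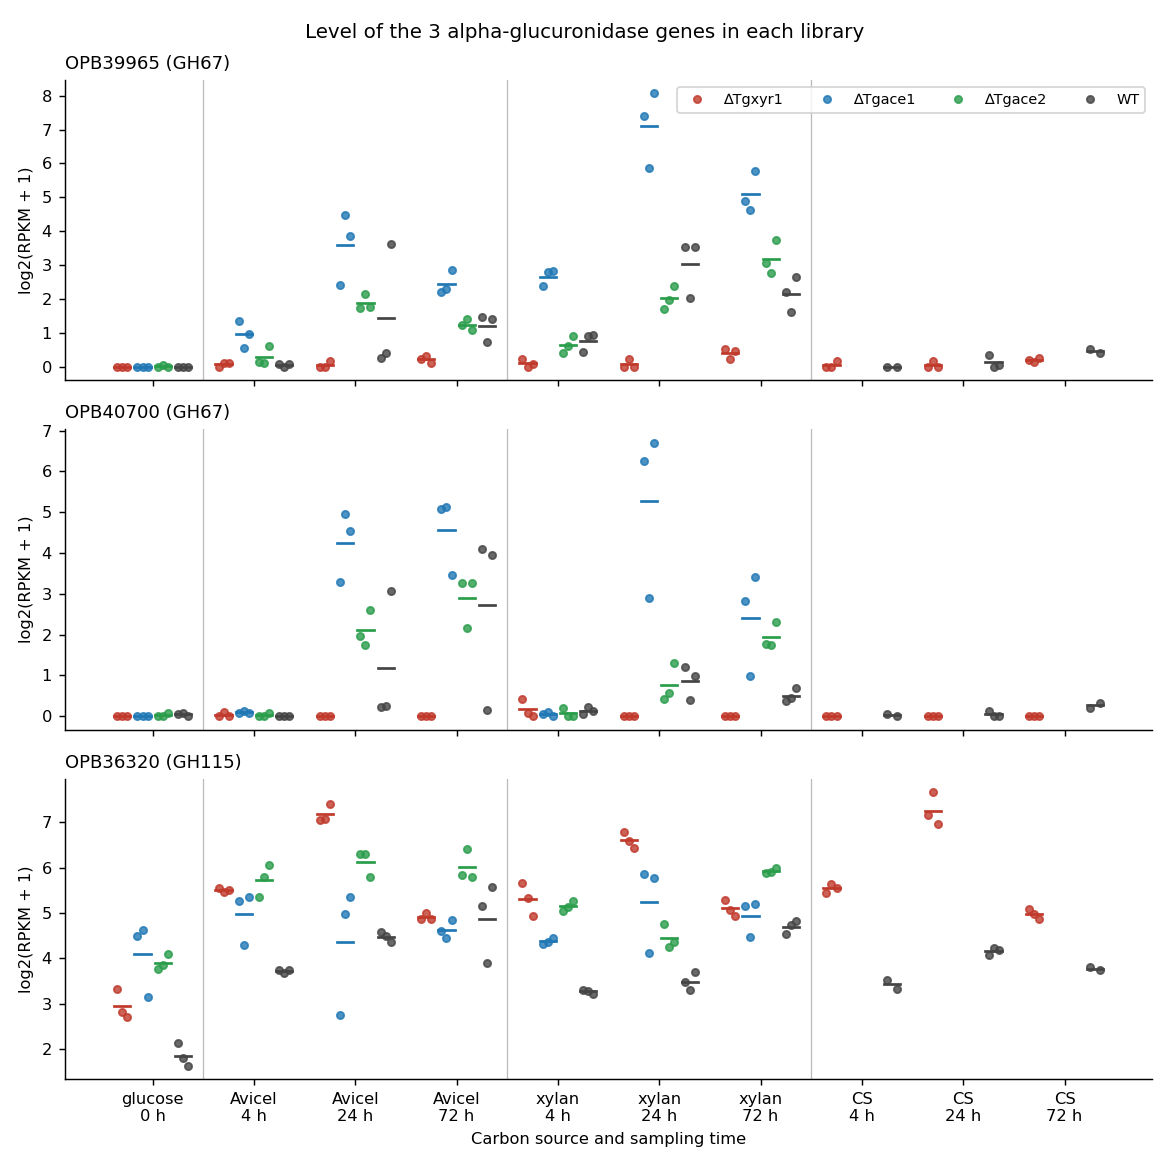
Level of the 3 genes in every library, as log2(RPKM + 1), by carbon source and sampling time. Points are libraries, coloured by strain, and short lines are group means. The GH67 genes lie at or near 0 at 0 h and in ∆Tgxyr1, and reach their highest levels in ∆Tgace1 on xylan at 24 h (means of 164 and 61.5 RPKM), whereas OPB36320 is highest in ∆Tgxyr1 at 24 h.

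OPB39965 was called higher in WT on xylan than at 0 h. On xylan it had 0.358, 0.864 and 0.919 RPKM at 4 h, 10.7, 3.09 and 10.6 RPKM at 24 h, and 3.61, 2.07 and 5.25 RPKM at 72 h. The mean was highest at 24 h, and the libraries at 24 and 72 h overlapped. As whole mycelium was sampled, fewer cells with the transcript and less transcript per cell cannot be told apart. Limma was run on log2(RPKM + 1) over 10026 genes, and a difference was called where its p adjusted by Benjamini-Hochberg did not exceed 0.01, its size was 2 or more on the log2 scale and the higher of the means exceeded 2 RPKM. Against 0 h, OPB39965 was called higher in WT on xylan at 24 h (log2 difference 3.04, SE 0.41, limma adjusted p = 5.7e-09), as were 4.58% of all genes. At 72 h on xylan the log2 difference was 2.16 (limma adjusted p = 6.6e-06), and it was 1.91 and not called without replicate 3 of that group. Of all genes, 8.94% were called higher at 72 h. These log2 differences are set by the added 1 RPKM because the gene is listed at 0 at 0 h, and they are no bound on the fold.

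On Avicel OPB39965 was under 2 RPKM in all WT libraries but 1. It had 0.0542, 0 and 0.0538 RPKM at 4 h, 0.198, 0.331 and 11.4 RPKM at 24 h, and 1.78, 0.644 and 1.65 RPKM at 72 h. At 24 h the WT group on Avicel was split, since replicate 3 exceeded every WT library on xylan and the other libraries were below 0.4 RPKM. Neither Avicel at 24 h (log2 difference 1.43, limma adjusted p = 0.0021) nor Avicel at 72 h (1.20, limma adjusted p = 0.018) met all limits against 0 h. On CS the gene had at most 0.432 RPKM, and its log2 differences from 0 h were 0 at 4 h, 0.13 at 24 h and 0.46 at 72 h.

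OPB40700 was called higher in WT on Avicel at 72 h than at 0 h. On Avicel it was listed at 0 in all 3 libraries at 4 h, had 0.162, 0.188 and 7.45 RPKM at 24 h, and had 16.0, 0.110 and 14.4 RPKM at 72 h. The same library as for OPB39965 was the high one at 24 h, and at 72 h the low library was replicate 2, the one that resembled CS cultures. On xylan the gene had 1.29, 0.316 and 0.975 RPKM at 24 h and 0.295, 0.365 and 0.613 RPKM at 72 h. The log2 difference from 0 h on Avicel at 72 h was 2.69 (SE 0.56, limma adjusted p = 0.00011), and 2.85% of all genes were called higher there. The gene was called in none of the other 8 WT comparisons with 0 h. In a fit of these groups alone the adjusted p was 0.31.

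In ∆Tgxyr1 neither GH67 gene reached 0.5 RPKM in any of 30 libraries. The highest values were 0.431 RPKM for OPB39965, on xylan at 72 h, and 0.337 RPKM for OPB40700, on xylan at 4 h, and OPB40700 was listed at 0 in 27 of 30 libraries. Against 0 h, limma called OPB39965 and OPB40700 in 0 of 9 comparisons each, and none had an unadjusted p of 0.05 or less. Of all genes, 6.97% to 12% were called higher in these comparisons. OPB39965 was detected in all 9 ∆Tgxyr1 libraries at 72 h, from 0.0786 to 0.431 RPKM. These low values were present in each medium, CS included.

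Against WT, OPB39965 was called lower in ∆Tgxyr1 on xylan at 24 h. It had 0, 0.175 and 0 RPKM in ∆Tgxyr1, against 10.7, 3.09 and 10.6 RPKM in WT. The libraries did not overlap, and the log2 difference was -2.96 (SE 0.41, limma adjusted p = 5.3e-09), while 5.59% of all genes were called lower. OPB40700 was called lower in ∆Tgxyr1 on Avicel at 72 h, listed at 0 in all 3 libraries, against 16.0, 0.110 and 14.4 RPKM in WT (log2 difference -2.73, SE 0.56, limma adjusted p = 3.8e-05). Of all genes, 5.47% were called lower there. In a fit of these groups alone its adjusted p was 0.17.

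A list of other enzymes of xylan breakdown, chosen with earlier results of these data known, was counted in the same comparisons. It is partial and holds only some of the GH10 endoxylanases and acetyl xylan esterases that the study counts. Of 15 xylan backbone and side chain genes, on xylan at 24 h 5 were lower in ∆Tgxyr1 than in WT and 1 was higher, with a median log2 difference of -1.13, beside 0 over all genes. Of all genes, 5.59% were called lower there and 7.49% higher. On Avicel at 72 h, 11 were lower and 1 was higher, with a median of -4.17 beside -0.02 over all genes. There 5.47% of all genes were called lower and 5.09% higher. The gene of the list that was higher in both comparisons was OPB38106, an alpha-L-arabinofuranosidase, with means at 24 h on xylan of 183 RPKM in ∆Tgxyr1 and 37.5 RPKM in WT. All 3 genes listed for pentose catabolism, which turn the released xylose into xylulose phosphate, were lower in ∆Tgxyr1 on xylan at 24 h, with a median log2 difference of -3.69. Both D-galacturonic acid reductase genes, OPB38730 and OPB37349, of hexuronic acid catabolism fell by 3.11 and 3.10 on the log2 scale as well. Of 4 genes listed as other glucuronidases, of families GH79 and GH2, 1 was called there. It was OPB38657 of GH2, annotated as galactosidase or glucuronidase, which was higher in ∆Tgxyr1 (log2 difference 5.08). OPB37565, also of the 4, is annotated as GH79 only.

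In ∆Tgace1 both GH67 genes were called higher than in WT at 24 h, on xylan and on Avicel. At 24 h on xylan OPB39965 had 167, 57.8 and 268 RPKM in ∆Tgace1, against 10.7, 3.09 and 10.6 RPKM in WT. OPB40700 had 75.0, 6.47 and 103 RPKM in ∆Tgace1, against 1.29, 0.316 and 0.975 RPKM in WT. The libraries of the strains did not overlap for either gene, and replicate 2, which stood apart from its group, was the low ∆Tgace1 library for both. The log2 differences were 4.08 for OPB39965 (SE 0.41, limma adjusted p = 3.4e-13) and 4.42 for OPB40700 (SE 0.56, limma adjusted p = 5.9e-10), while 4.42% of all genes were called higher. In a fit of these groups alone the call of OPB40700 was lost (adjusted p = 0.020).

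At 4 h on xylan the strains did not overlap for OPB39965, with 4.18, 5.95 and 6.02 RPKM in ∆Tgace1, against 0.358, 0.864 and 0.919 RPKM in WT. Its log2 difference of 1.90 (limma adjusted p = 0.00014) was under the limit of 2. At that time OPB40700 had at most 0.0683 RPKM in ∆Tgace1. At 72 h on xylan OPB39965 had 28.5, 23.9 and 54.3 RPKM in ∆Tgace1, against 3.61, 2.07 and 5.25 RPKM in WT, and was called higher (log2 difference 2.95, limma adjusted p = 6.2e-09), beside 3.3% of all genes. OPB40700 had 6.07, 0.992 and 9.57 RPKM in ∆Tgace1 and 0.295, 0.365 and 0.613 RPKM in WT at 72 h, which did not pass the limit on the difference (log2 difference 1.90, limma adjusted p = 0.0031).

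On Avicel at 24 h OPB40700 had 8.71, 30.0 and 22.2 RPKM in ∆Tgace1, against 0.162, 0.188 and 7.45 RPKM in WT, with no overlap. It was called higher (log2 difference 3.07, SE 0.56, limma adjusted p = 6.0e-06), beside 4.16% of all genes. OPB39965 had 4.26, 21.3 and 13.6 RPKM in ∆Tgace1, against 0.198, 0.331 and 11.4 RPKM in WT, and the strains overlapped through WT replicate 3. Its log2 difference was 2.15 (SE 0.41, limma adjusted p = 1.5e-05), was 3.24 without that library and was 1.56 and not called without WT replicate 1. It was also not called without WT replicate 2 or without ∆Tgace1 replicate 2, at 1.64 and 1.70. In a fit of these groups alone both calls were lost (adjusted p = 0.061 for OPB40700 and 0.20 for OPB39965). At 72 h on Avicel OPB40700 had 33.0, 33.9 and 10.04 RPKM in ∆Tgace1, against 16.0, 0.110 and 14.4 RPKM in WT, and the difference was not called (log2 difference 1.83, limma adjusted p = 0.0056).

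Within ∆Tgace1 the GH67 genes were compared with 0 h. Against 0 h, where both were listed at 0, OPB39965 was called higher in 5 of 6 comparisons and OPB40700 in 4 of 6. For OPB39965 these were xylan at 4 h (log2 difference 2.66, 7.61% of all genes called higher), 24 h (7.11, 6.41%) and 72 h (5.10, 5.97%), and Avicel at 24 h (3.58, 4.27%) and 72 h (2.45, 4.07%). OPB40700 was called in the same comparisons apart from xylan at 4 h, with log2 differences of 5.28, 2.41, 4.26 and 4.56. The value of 2.41, on xylan at 72 h, was 1.91 and not called without replicate 3. In fits of the compared groups alone the calls of OPB40700 on xylan at 24 and 72 h and of OPB39965 on Avicel at 24 h were lost (adjusted p = 0.019, 0.027 and 0.017). Of the 15 other xylan genes of the partial list, 11 were higher in ∆Tgace1 than in WT on xylan at 24 h. Their median log2 difference was 4.04 beside 0.14 over all genes. Of all genes, 4.42% were called higher there. On Avicel at 24 h 10 were higher and 1 was lower, with a median of 4.75 beside 0.003 over all genes. There 4.16% of all genes were called higher and 3.83% lower.

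In ∆Tgace2 the GH67 genes were not called against WT. OPB39965 had 2.24, 2.92 and 4.19 RPKM in ∆Tgace2 on xylan at 24 h, against 10.7, 3.09 and 10.6 RPKM in WT, and 7.28, 5.83 and 12.4 RPKM in ∆Tgace2 at 72 h, against 3.61, 2.07 and 5.25 RPKM in WT. The log2 differences from WT were -1.02 (limma adjusted p = 0.050) and 1.03 (limma adjusted p = 0.035). The level was highest at 72 h in ∆Tgace2 and at 24 h in WT, and the differences between responses at these times were not called. OPB40700 had 2.87, 2.35 and 5.11 RPKM in ∆Tgace2 on Avicel at 24 h, against 0.162, 0.188 and 7.45 RPKM in WT, and the strains overlapped. Limma called each GH67 gene in 0 of 7 comparisons of ∆Tgace2 with WT. Of all genes, 1.32% to 7.52% were called higher in them and 1.40% to 3.99% lower. At an unadjusted p of 0.05, OPB39965 was higher in 1 and lower in 1, and OPB40700 was higher in 1.

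Against 0 h in ∆Tgace2, OPB39965 was called higher on xylan at 72 h (log2 difference 3.17, SE 0.41, limma adjusted p = 7.7e-10; 8.47% of all genes). OPB40700 was called higher on Avicel at 24 h (2.08, limma adjusted p = 0.0013; 7.24% of all genes) and at 72 h (2.87, limma adjusted p = 1.9e-05; 5.79% of all genes). At 72 h on Avicel it had 8.60, 3.46 and 8.58 RPKM. The call at 24 h was lost without ∆Tgace2 replicate 3, at 1.83.

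**Figure D2:**
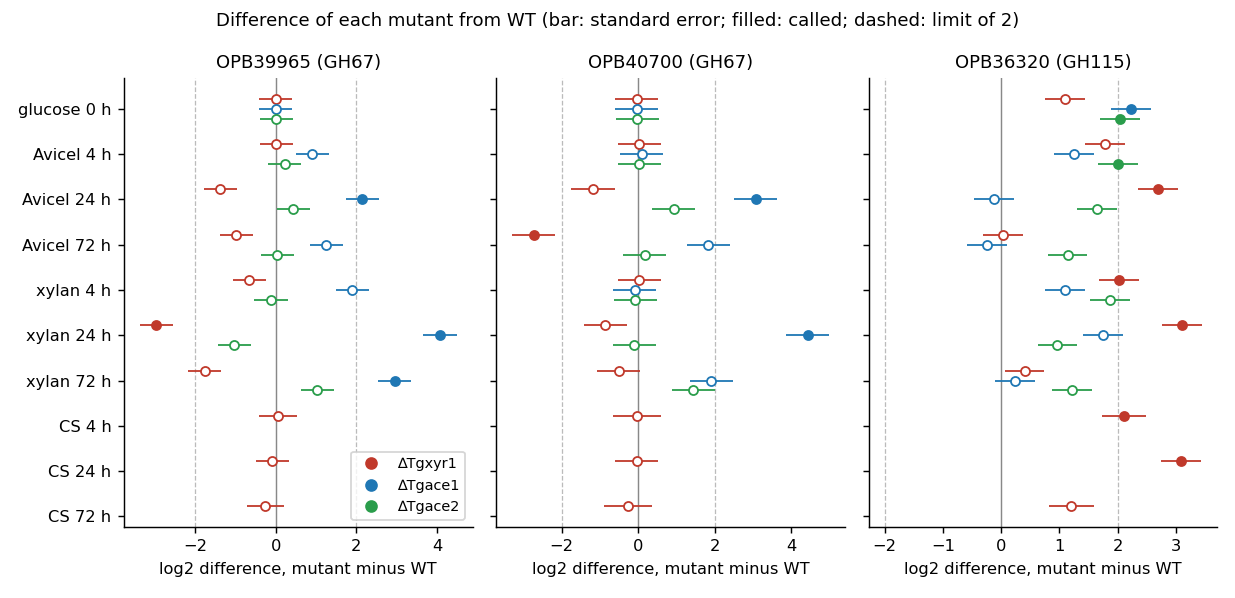
Log2 difference of each mutant from WT in each medium and at each time, on the log2(RPKM + 1) scale of limma. Bars are standard errors, filled points were called and dashed lines mark the limit of 2. For the GH67 genes the filled points lie to the right in ∆Tgace1 (2.15 to 4.42) and to the left in ∆Tgxyr1 (-2.96 and -2.73), and for OPB36320 every filled point lies to the right.

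Between the polysaccharides OPB39965 was called lower on Avicel in ∆Tgace1 only, and OPB40700 higher in ∆Tgace1 and WT only. Each gene was called in 2 of 12 comparisons. For OPB39965 in WT the log2 difference was -1.60 at 24 h, where the groups overlapped, and -0.96 at 72 h, not called. In ∆Tgace2 it was -0.14 and -1.95 at these times, also not called. In ∆Tgace1 at 24 h OPB39965 was lower on Avicel than on xylan, with 4.26, 21.3 and 13.6 RPKM on Avicel, against 167, 57.8 and 268 RPKM on xylan (log2 difference -3.53, limma adjusted p = 1.7e-10; 3.08% of all genes were called lower). It was lower at 72 h too, with 3.59, 3.94 and 6.22 RPKM on Avicel, against 28.5, 23.9 and 54.3 RPKM on xylan (-2.65, limma adjusted p = 1.0e-06; 0.958% of all genes). OPB40700 had the same sign as OPB39965 in ∆Tgace1 at 24 h, with 8.71, 30.0 and 22.2 RPKM on Avicel, against 75.0, 6.47 and 103 RPKM on xylan, and was not called (log2 difference -1.03, limma adjusted p = 0.16). It had the opposite sign at 72 h in ∆Tgace1, with 33.0, 33.9 and 10.04 RPKM on Avicel, against 6.07, 0.992 and 9.57 RPKM on xylan (log2 difference 2.15, limma adjusted p = 0.0029; 2.62% of all genes were called higher). That call was lost without xylan replicate 2 (1.45), Avicel replicate 1 (1.89) or Avicel replicate 2 (1.87). In WT at 72 h OPB40700 had 16.0, 0.110 and 14.4 RPKM on Avicel, against 0.295, 0.365 and 0.613 RPKM on xylan (2.22, limma adjusted p = 0.00084; 2.83% of all genes). The groups overlapped through Avicel replicate 2: the difference was 3.51 without it, and 1.54 and 1.62, not called, without replicates 1 and 3. In fits of the compared groups alone these 4 calls were all lost, with adjusted p between 0.023 and 0.30.

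The ratio of the GH67 genes within a library was higher on Avicel than on xylan. It was taken as log2 of (OPB40700 + 1) over (OPB39965 + 1) in RPKM, over the 36 libraries of ∆Tgace1, ∆Tgace2 and WT on Avicel and xylan at 24 and 72 h. Libraries of ∆Tgxyr1 and of 4 h, in which at least 1 of the genes was near 0, were left out. In ∆Tgace1 it averaged 0.67 ± 0.21 on Avicel and -1.83 ± 0.999 on xylan at 24 h (SD, n = 3 each), and 2.11 ± 1.29 on Avicel and -2.70 ± 0.83 on xylan at 72 h. In ∆Tgace2 it averaged 0.23 ± 0.62 on Avicel and -1.26 ± 0.17 on xylan at 24 h, and 1.66 ± 0.78 on Avicel and -1.25 ± 0.21 on xylan at 72 h. In WT it averaged -0.25 ± 0.26 on Avicel and -2.18 ± 0.48 on xylan at 24 h, and 1.53 ± 1.81 on Avicel and -1.65 ± 0.42 on xylan at 72 h. With the added 1 RPKM, in each of the 6 sets of strain and time every Avicel library exceeded every xylan library. Averaged over the sets, Avicel minus xylan was 2.80, and it was 1.98 at 24 h alone and 3.63 at 72 h alone. In libraries with both genes under 0.4 RPKM, as WT replicates 1 and 2 on Avicel at 24 h, the added 1 RPKM pulls the ratio towards 0. It does so too in WT replicate 2 on Avicel at 72 h (OPB40700 0.110 RPKM, OPB39965 0.644 RPKM). That this library exceeded WT replicate 2 on xylan at 72 h (0.365 and 2.07 RPKM) rests on the added 1 RPKM.

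**Figure D3:**
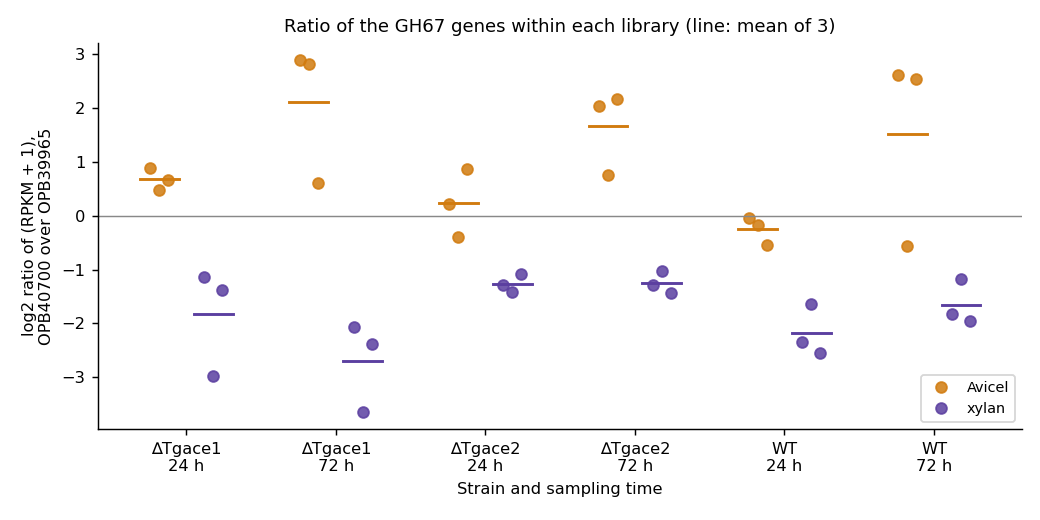
Log2 ratio of (RPKM + 1) of OPB40700 over OPB39965 within each library, by strain and time. Points are libraries on Avicel (left) or xylan (right) and lines are means of 3. All xylan libraries lie below -1, and every Avicel library lies above the xylan libraries of its own set. For WT replicate 2 on Avicel at 72 h this rests on the added 1 RPKM.

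Neither GH67 gene reached 0.5 RPKM in any CS library. OPB39965 was higher in WT on xylan than on CS at 24 h, with 10.7, 3.09 and 10.6 RPKM on xylan, against 0.270, 0 and 0.0363 RPKM on CS (log2 difference 2.91, SE 0.41, limma adjusted p = 1.2e-08; 7.37% of all genes were called higher). OPB40700 was higher in WT on Avicel than on CS at 72 h, with 16.0, 0.110 and 14.4 RPKM on Avicel, against 0.154 and 0.254 RPKM on CS (2.46, SE 0.63, limma adjusted p = 0.0011; 6.42% of all genes). The groups overlapped through Avicel replicate 2, and the difference was 3.75 without it. It was not called without Avicel replicate 1 (1.78) or 3 (1.85) or without CS replicate 1 (2.402) or 2 (2.52), nor in a fit of these groups alone (adjusted p = 0.46). In ∆Tgxyr1 the differences of both genes between a polysaccharide and CS were all between 0 and 0.19 on the log2 scale, and none was called by limma or had an unadjusted p of 0.05 or less.

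The GH115 gene OPB36320 was called higher than at 0 h in WT on both polysaccharides and on CS. In WT it had 3.42, 2.48 and 2.12 RPKM at 0 h, and on xylan 8.95, 8.82 and 8.35 RPKM at 4 h, 10.1, 8.93 and 11.9 RPKM at 24 h and 22.4, 25.5 and 27.4 RPKM at 72 h. On Avicel it had 12.5, 11.8 and 12.4 RPKM at 4 h, 22.8, 21.7 and 19.4 RPKM at 24 h and 34.9, 13.8 and 46.6 RPKM at 72 h. On CS, where no polysaccharide was given, it had 10.6 and 9.09 RPKM at 4 h, 15.9, 17.7 and 17.3 RPKM at 24 h and 13.02 and 12.3 RPKM at 72 h. Every library after transfer exceeded all 3 libraries at 0 h. The differences from 0 h passed all limits on xylan at 72 h (log2 difference 2.84), Avicel at 24 h (2.61; 6.88% of all genes called higher) and 72 h (3.01) and CS at 24 h (2.31; 5.97%), with limma adjusted p of at most 3.5e-08. The others lay between 1.42 and 1.91. In a fit of the compared groups alone the call on Avicel at 72 h was lost (adjusted p = 0.086).

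No difference of OPB36320 between media was called, and most genes went uncalled in each of these comparisons. Of all genes, 0.00997% to 8.56% were called higher and 0% to 4.53% lower on a polysaccharide than on CS. On Avicel against xylan 0.0199% to 4.66% were called higher and 0.229% to 7.78% lower. Limma called OPB36320 in 0 of 12 comparisons of a polysaccharide with CS, where 2 had an unadjusted p of 0.05 or less, and in 0 of 12 comparisons of Avicel with xylan, where 3 did. The furthest was ∆Tgace2 at 24 h, with 77.9, 77.1 and 54.3 RPKM on Avicel, against 26.2, 18.1 and 19.6 RPKM on xylan (log2 difference 1.67, limma adjusted p = 5.0e-05).

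OPB36320 was higher in ∆Tgxyr1 than in WT at 4 and 24 h in most media. On xylan at 24 h it had 109.6, 94.3 and 84.6 RPKM in ∆Tgxyr1, against 10.1, 8.93 and 11.9 RPKM in WT (log2 difference 3.10, SE 0.34, limma adjusted p = 3.8e-12; 7.49% of all genes were called higher). On Avicel at 24 h it had 132, 134 and 166 RPKM in ∆Tgxyr1, against 22.8, 21.7 and 19.4 RPKM in WT (2.69, limma adjusted p = 3.7e-10; 8.5% of all genes). On CS at 24 h it had 140.8, 200.1 and 123 RPKM in ∆Tgxyr1, against 15.9, 17.7 and 17.3 RPKM in WT (3.08, limma adjusted p = 9.1e-12; 5.64% of all genes). In all media at 24 h the strains were far apart, with no overlap. At 4 h it was called on xylan (2.03; 3.18% of all genes) and CS (2.11; 2.94%), and the call on xylan was lost without ∆Tgxyr1 replicate 1, at 1.86. The RPKM sums of libraries also differed. On Avicel at 24 h they were 2.38e+06 to 3.30e+06 in ∆Tgxyr1 and 1.01e+06 to 1.19e+06 in WT, with a median log2 difference over all genes of -0.04.

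At 72 h the strains were not called different. OPB36320 had 38.2, 32.5 and 29.8 RPKM in ∆Tgxyr1 on xylan, against 22.4, 25.5 and 27.4 RPKM in WT, and the log2 difference was 0.40 (limma adjusted p = 0.34). On Avicel the difference was 0.04 and the strains overlapped. On CS at 72 h it had 33.0, 30.6 and 28.2 RPKM in ∆Tgxyr1, against 13.02 and 12.3 RPKM in WT, a log2 difference of 1.21 (limma adjusted p = 0.0075) that was under the limit of 2.

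Within ∆Tgxyr1 OPB36320 was called higher than at 0 h in 8 of 9 comparisons, with 9.03, 6.13 and 5.60 RPKM at 0 h. On xylan the log2 differences were 2.35 at 4 h (8.98% of all genes called higher), 3.63 at 24 h (12%) and 2.14 at 72 h (10.2%). On Avicel they were 2.55 at 4 h (7.57%) and 4.21 at 24 h (11.4%), and at 72 h 1.95, which was not called. On CS they were 2.58 at 4 h (6.97%), 4.29 at 24 h (10.3%) and 2.02 at 72 h (7.84%). The last was 1.90 to 1.96 and not called without 0 h replicate 2 or 3 or CS replicate 1. In every medium the mean was highest at 24 h in this mutant.

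**Figure D4:**
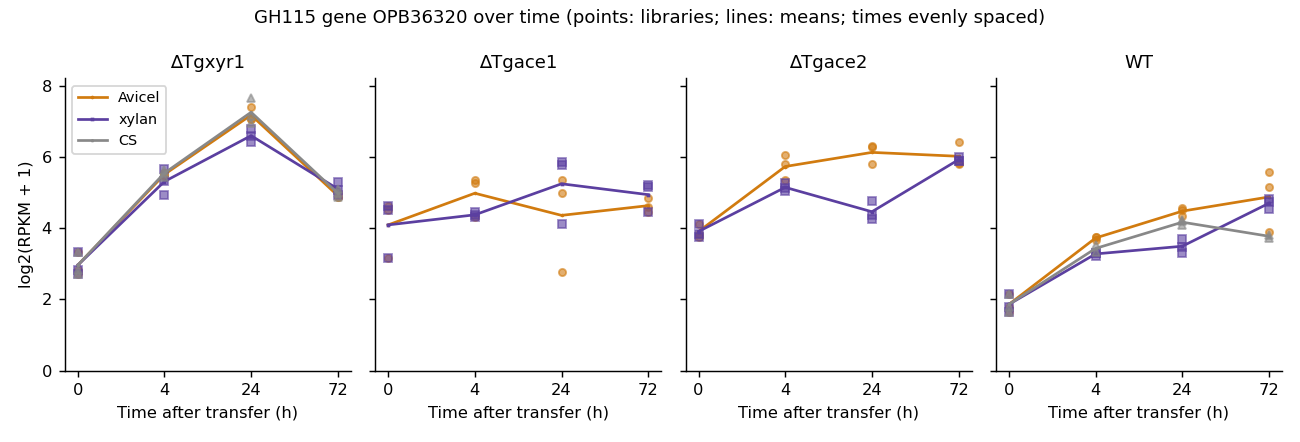
Level of the GH115 gene OPB36320 over time in each strain, as log2(RPKM + 1), with times evenly spaced. Points are libraries, lines join group means, and the 0 h libraries are shared by all media. In ∆Tgxyr1 each of the 3 media is highest at 24 h (means of 96.2 RPKM on xylan, 144 RPKM on Avicel and 155 RPKM on CS), and WT starts lowest (mean of 2.68 RPKM).

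At 0 h OPB36320 was called higher than in WT in ∆Tgace1 and ∆Tgace2. At 0 h it had 21.7, 23.5 and 7.92 RPKM in ∆Tgace1 (log2 difference from WT 2.23, SE 0.34, limma adjusted p = 2.4e-07; 1.87% of all genes called higher), against 3.42, 2.48 and 2.12 RPKM in WT. The low ∆Tgace1 library, replicate 3, was among those that stood apart from their group. The call was lost without replicate 2 (1.97) and in a fit of these groups alone (adjusted p = 0.028). In ∆Tgace2 it had 12.6, 13.4 and 16.2 RPKM, against the same WT libraries (2.04, SE 0.34, limma adjusted p = 3.3e-06; 1.32% of all genes). That call was lost without WT replicate 3 (1.93) or ∆Tgace2 replicate 3 (1.94), with array weights (1.85) and with a pseudocount of 2 (1.78). In ∆Tgxyr1 the log2 difference at 0 h was 1.10 (limma adjusted p = 0.012), and all 9 mutant libraries at 0 h exceeded all WT libraries. How many other genes were separated in this way was not counted.

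In ∆Tgace2 the libraries lay above those of WT for OPB36320, without overlap, in each of 7 comparisons. Such separation was not counted over all genes. OPB36320 had a log2 difference larger in size than that of 78.9% to 97.2% of genes in these comparisons. On Avicel at 4 h it had 39.6, 54.2 and 65.6 RPKM in ∆Tgace2, against 12.5, 11.8 and 12.4 RPKM in WT (log2 difference 2.005, limma adjusted p = 3.4e-06; 2.27% of all genes called higher). That value was at the limit, and the call was lost without ∆Tgace2 replicate 2 (1.98) or 3 (1.84) or WT replicate 2 (1.98), with median scaling (1.96) and with a pseudocount of 2 (1.93). In the comparisons after 0 h that were not called the log2 difference was 0.97 to 1.87. Against 0 h in ∆Tgace2 the gene was called higher on xylan at 72 h (2.02) and on Avicel at 24 h (2.22) and 72 h (2.11). The first was lost without replicate 1 or 2 at 0 h or xylan replicate 3 (1.94 to 1.99), and the last without Avicel replicate 2 (1.91). In ∆Tgace1, by contrast, it was called in 0 of 6 comparisons with 0 h by limma, with 3 at an unadjusted p of 0.05 or less and log2 differences of 0.27 to 1.15. Of all genes, 4.07% to 7.61% were called higher in these comparisons.

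Whether a mutant responded to transfer differently from WT was tested as an interaction, the change from 0 h in the mutant minus that in WT. The GH67 genes were at or near 0 at 0 h in each strain, so their interactions restate the differences from WT given above. In ∆Tgace1 on xylan at 24 h both values were 4.08 for OPB39965, and they were 4.42 and 4.47 for OPB40700. In ∆Tgxyr1 on xylan at 24 h the change of OPB39965 was smaller (-2.96, limma adjusted p = 2.8e-05; 4.55% of all genes called lower) and that of OPB36320 larger (2.004, limma adjusted p = 0.00052; 7.93% called higher). On Avicel at 72 h the change of OPB40700 was smaller in ∆Tgxyr1 (-2.69, limma adjusted p = 0.0066; 3.53% called lower). In ∆Tgace1 the changes of OPB39965 and OPB40700 were larger on xylan at 24 h (4.08 and 4.47; 2.6% called higher) and on Avicel at 24 h (2.15 and 3.12; 5.59%), and that of OPB39965 on xylan at 72 h (2.95; 2.99%). The change of OPB36320 was smaller in ∆Tgace1 on Avicel at 24 h (-2.35, limma adjusted p = 8.6e-05; 4.07% called lower) and 72 h (-2.47, limma adjusted p = 0.00013; 1.32%), in a strain with a higher level at 0 h. In fits of the compared groups alone 6 of these 10 calls were lost, that of OPB40700 in ∆Tgxyr1 and in ∆Tgace1 those of OPB40700 on xylan at 24 h and of all 3 genes on Avicel. In ∆Tgace2 limma called 0 such differences for the 3 genes, and 1 had an unadjusted p of 0.05 or less, that of OPB36320 on xylan at 24 h (-1.08).

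Ordered by group mean, OPB39965 was highest in ∆Tgace1 on xylan at 24 h (164 ± 105 RPKM, SD, n = 3) and at 72 h (35.6 ± 16.4 RPKM), and neither overlapped the next group. Below these, ∆Tgace1 on Avicel at 24 h (13.1 ± 8.54 RPKM), ∆Tgace2 on xylan at 72 h (8.49 ± 3.43 RPKM) and WT on xylan at 24 h (8.12 ± 4.36 RPKM) overlapped. OPB40700 was highest in ∆Tgace1 on xylan at 24 h (61.5 ± 49.7 RPKM), Avicel at 72 h (25.7 ± 13.5 RPKM) and Avicel at 24 h (20.3 ± 10.8 RPKM), which overlapped each other. OPB36320 was highest in ∆Tgxyr1 at 24 h on CS (155 ± 40.3 RPKM), Avicel (144 ± 19.4 RPKM) and xylan (96.2 ± 12.6 RPKM), and the last did not overlap its neighbours. Of the 33 neighbouring pairs in each order, 3 did not overlap for OPB39965, 1 for OPB40700 and 4 for OPB36320. These counts were not set beside those of other genes.

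Over the 34 group means, on the log2(RPKM + 1) scale, OPB39965 and OPB40700 had a Pearson correlation of 0.78, and OPB36320 had 0.04 with OPB39965 and 0.11 with OPB40700. Group means share strain, medium and time, so these are descriptions. The genes most like OPB39965 were OPB42759 of GH43 (0.92), the hypothetical protein OPB37876 (0.90), the beta-xylosidase XYL3b, OPB40840 (0.86), the hypothetical protein OPB37563 (0.86) and the xylulokinase OPB45197 (0.86). The genes most like OPB40700 were a lipase, OPB37159 (0.97), the GH30 genes OPB40699 (0.97) and OPB45639 (XYN4, 0.96), the sugar transporter OPB40698 (0.96) and the GH11 gene OPB41202 (0.93). The identifiers OPB40698, OPB40699 and OPB40700 follow each other, and their positions were not analysed here. Those most like OPB36320 were the hypothetical protein OPB39358 (0.85), the dehydrogenase OPB35967 (0.84), the oxidoreductase OPB42801 (0.84), the conserved hypothetical protein OPB39756 (0.84) and the pyruvate decarboxylase OPB45520 (0.83). No xylan gene of the list was among them.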

How the data were processed

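RNA of 100 mycelium libraries was sequenced. The deposited table holds RPKM values that the authors made: reads passed FASTX-Toolkit filters, were mapped by TopHat2 (with Bowtie2) on the strain's own genome and were summarised per gene by Cufflinks and then Cuffnorm. Their text also calls the values FPKM. Tool versions, the annotation release and the strand setting are not given in the sources used here, and gene positions were not used. Depth is unknown. The spacing of 38718 values of rarely detected genes gave the RPKM of 1 fragment, which differed 7.36 times between libraries. Of the lower part of these values, 93.5% lay within 0.15 of a whole multiple. Such spacing limits values under about 1 RPKM.

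Groups came from the labels. Limma 3.58.1 in R 4.3.3 was fitted with a trend on log2(RPKM + 1), with 34 group means (66 residual degrees of freedom). The 10026 genes that exceeded 1 RPKM in 2 or more libraries were tested. The limits of a call (adjusted p of at most 0.01, log2 difference of at least 2, mean above 2 RPKM) are set out with the results. For an interaction the highest mean involved was used. The share of all genes whose libraries did not overlap was not computed for any comparison. Python 3.11.15 with numpy 2.4.6 gave the GH67 ratio, which is described with no p because its genes were chosen with results known. The limma fit was tested on simulated data. The named genes are the 3 alpha-glucuronidases, genes of the pathway lists on which a result turned, the 5 genes most correlated with each, and TgXyr1 as a check of labels. The other target genes are not reported here. The members, lists and tests were chosen with earlier results of these data known. Alternatives were other pseudocounts, filters, scalings and weights, fits of the compared groups alone, a replicate block, unadjusted p and leaving out each library. Leaving out the 6 libraries that stood apart was chosen after seeing the data.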

Additional observations from a re-analysis of the deposited data

Results flagged for a closer look

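The 10 interactions past the limits are flagged because the response of a mutant differed from that of WT by a test of the difference itself. In ∆Tgxyr1 they were -2.96 for OPB39965 (SE 0.58) and 2.004 for OPB36320 (SE 0.48) on xylan at 24 h, and -2.69 for OPB40700 (SE 0.80) on Avicel at 72 h, in log2 units by limma. In ∆Tgace1 on xylan they were 4.08 for OPB39965 and 4.47 for OPB40700 at 24 h and 2.95 for OPB39965 at 72 h. In ∆Tgace1 on Avicel they were 2.15 for OPB39965, 3.12 for OPB40700 and -2.35 for OPB36320 at 24 h, and -2.47 for OPB36320 at 72 h. The values of the GH67 genes restate their differences from WT, as both genes were at or near 0 at 0 h.

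The value of OPB36320 in ∆Tgxyr1 was at the limit, from 1.86 to 1.99 and not called without any of 6 libraries. The value of OPB40700 in ∆Tgxyr1 was not called without any of 11 libraries, among them WT Avicel replicates 1 and 3 at 72 h (-2.004 and -2.08) and all 9 libraries outside that group, where it stayed between -2.70 and -2.66 with adjusted p of 0.012 to 0.014. On Avicel at 24 h in ∆Tgace1, OPB39965 was 3.24 without WT replicate 3 and was not called without WT replicate 1 (1.56), WT replicate 2 (1.64) or ∆Tgace1 replicate 2 (1.70). OPB40700 was not called there without WT replicate 1 or 2 (2.63 and 2.65), and OPB36320 was not called without ∆Tgace1 replicate 1 (-1.55). Groups here hold 2 or 3 libraries, so no search for lone outlying values was made.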

How the results depend on the processing

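None of the 61 calls for the 3 genes changed its direction under the alternatives run, which were computed for called differences only. Of these calls, 61 were kept under each filter on low values, with unadjusted p and without the libraries that stood apart, 58 with array weights, 57 with median scaling, 59 and 44 with a pseudocount of 0.1 and 2, and 40 in fits of the compared groups alone. Over all genes, such a fit called 186 against 0 h in ∆Tgace1 on Avicel at 24 h (833 in the fit of all groups) and 1901 in ∆Tgxyr1 on xylan at 24 h (1925). The replicate block also kept all 61. Over all genes its counts of calls were not always equal to those without it. In WT on xylan against CS at 72 h they were 1057 with it and 1074 without. Deviations of same-numbered libraries from their group means correlated above 0.1 in every pair in 1 of 78 comparisons, so the numbers were not read as pairs.

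With a pseudocount of 0.1, 11 tests against 0 h were called higher in WT (7 with 1), 5 lower in ∆Tgxyr1 than in WT (2), 1 higher and 5 lower on Avicel than on xylan (2 and 2) and 4 higher on a polysaccharide than on CS (2). With 2, the counts were 0 for ∆Tgace2 higher than WT (2), 0 for Avicel higher than xylan and 1 for polysaccharide higher than CS. In fits of the compared groups alone they were 1 for ∆Tgxyr1 lower than WT, 2 for ∆Tgace1 higher than WT (6), 0 and 0 for Avicel higher and lower than xylan, 1 for polysaccharide higher than CS and 4 for differences between responses (10). Array weights gave 1 for ∆Tgace2 higher than WT and 1 and 4 for Avicel higher and lower than xylan, and median scaling gave 1 for ∆Tgace2. The cause was not tested. The 17 calls lost with a pseudocount of 2 had log2 differences of 1.40 to 1.97, apart from the response of OPB40700 in ∆Tgxyr1 on Avicel at 72 h, which was lost through its adjusted p.

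Leaving out 1 library gave 1 to 2 calls for ∆Tgace2 higher than WT, 1 to 2 for Avicel higher than xylan and 1 to 2 for polysaccharide higher than CS, and 19 of 61 calls were lost at least once. The difference in the GH67 ratio was 1.98 to 3.66 over all its alternatives. Depth limits the GH67 genes below about 1 RPKM, where a few fragments make up a value.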
